A study of Drosophila melanogaster with 4 samples.

Results

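The bithorax complex is the cluster of Hox genes on arm 3R of the Drosophila melanogaster genome that holds Ubx, abd-A and Abd-B. Its Abd-B-GFP binding sites were taken as the peaks on 3R with a midpoint between 12480000 and 12810000 on FlyBase release 5, which gave 21 of the 4389 peaks of the deposited list (0.478%, exact Clopper-Pearson 95% interval 0.296 to 0.73%). The position alone chose them, without regard to score or width. The spans used for the genes were approximate, rounded to 1 kb: 12482000 to 12561000 for Ubx, 12632000 to 12656000 for abd-A and 12752000 to 12798000 for Abd-B.

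The peaks come from chromatin immunoprecipitation and sequencing (ChIP-seq) of third-instar larvae (L3, wandering per the protocol), with 2 libraries of DNA precipitated by a rabbit anti-GFP antibody (ab290) and 2 libraries of input DNA. The larvae of all 4 libraries are labelled as the strain Abd-B-GFP and of unknown sex, the genotype is written as w; PBac{y[+]-attP-3B}VK00037, and all carry a transgene made of genomic Abd-B whose stop codon was exchanged for GFP. The protocol text names a different stock, y; bw cn sp, and no value used here shows which stock was sampled. Whole larvae were cross-linked, so each peak is an average over all larval cells. The authors deposited 1 list for the series, which keeps no library apart. No value therefore has a replicate error, no difference below could be tested over replicates, and the intervals cover counting error only.

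The 3 genes encode homeodomain transcription factors that give the segments of the posterior thorax and the abdomen their identity. Ubx acts from the posterior thorax, abd-A in the anterior and middle abdomen, and Abd-B in the most posterior segments, and they lie along the chromosome in the same order as the segments that they pattern. All of them are transcribed towards lower coordinates, so the upper end of each span is its 5′ end. Long stretches of regulatory DNA lie between and within the genes. The bxd region regulates Ubx, and the iab regions regulate abd-A and Abd-B in successive abdominal segments, with boundary elements such as Mcp, Fab-7 and Fab-8 between neighbouring iab domains and Polycomb response elements that keep the genes silent where they are not needed. The positions of these elements were not analysed here.

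In the complex, peaks were densest at the Abd-B end. The Abd-B span held 11 of the 21 peaks (52.4%, exact 95% interval 29.8 to 74.3%) in 13.9% of the length, and these peaks made up 68.9% of the 10978 bp that peaks covered in the complex. The interval from abd-A to Abd-B held 6 peaks, the abd-A span held 2, and the Ubx span and the interval from Ubx to abd-A held 1 each. The edges of the complex, 2 kb below Ubx and 12 kb above Abd-B, held 0. From the lower edge to the 5′ end of abd-A there were thus 4 peaks in 176 kb, and from there to the upper edge 17 peaks in 154 kb.

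**Figure D1:**
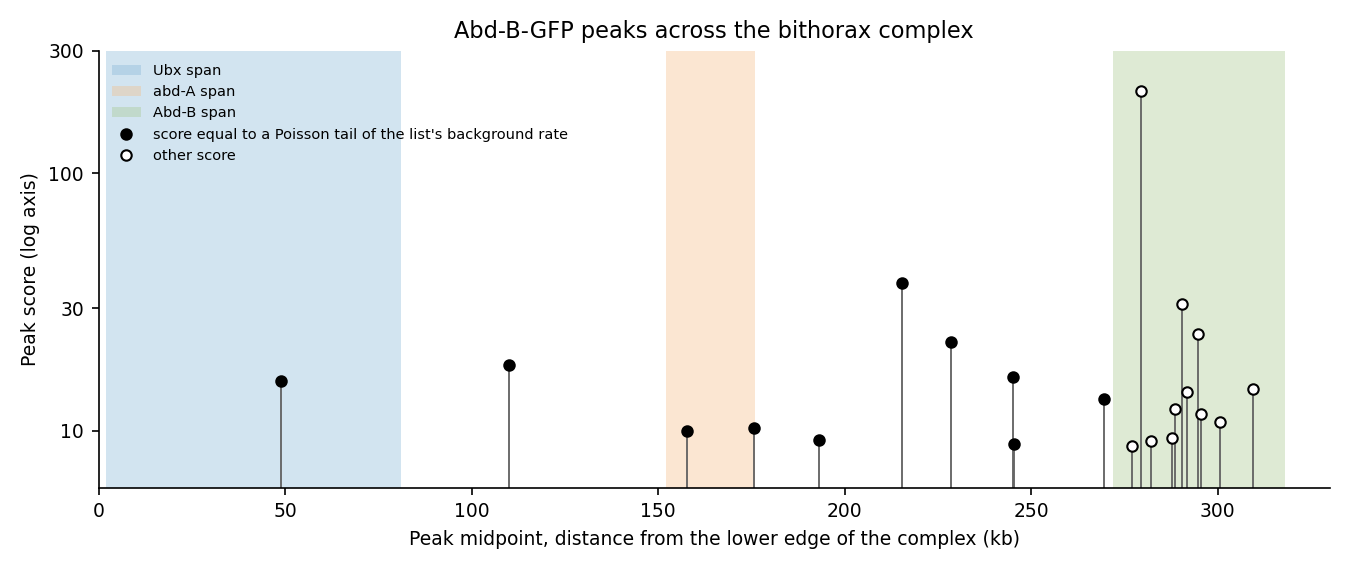
Score of each of the 21 peaks (vertical axis, logarithmic) against the distance of its midpoint from the lower edge of the complex (kb), with the approximate spans of Ubx, abd-A and Abd-B shaded. Filled circles are the 10 scores that equal a Poisson tail of the background rate fitted over the whole list and open circles are the 11 other scores; all of the open circles lie in the Abd-B span, where the highest score, 210.10, stands.

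Expressed per length, the Abd-B span had 23.9 peaks per 100 kb (exact Poisson 95% interval 11.9 to 42.8). The other 284 kb of the complex had 3.52 (1.69 to 6.48), so the density in Abd-B was 6.79 times that of the remainder. Among the separate stretches, abd-A had 8.33 peaks per 100 kb (1.01 to 30.1), the interval from abd-A to Abd-B had 6.25 (2.29 to 13.6), the interval from Ubx to abd-A had 1.41 (0.0357 to 7.85) and Ubx had 1.27 (0.032 to 7.05). The intervals of all of these overlap each other except those of Abd-B against Ubx and against the interval from Ubx to abd-A. With 1 or 2 peaks in 3 of the stretches, the order among them is not resolved at these counts. The Poisson intervals treat peaks as independent, and peaks that lie close together make them too narrow. Merging peaks less than 1 kb apart left 7 peaks in Abd-B and 9 in the remainder, a density ratio of 4.8. The median score of the list was reached by 3 of the 11 peaks in Abd-B and by 5 of the 10 others, which gives a ratio of 3.7 and leaves Abd-B with 3 of 8 peaks.

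**Figure D2:**
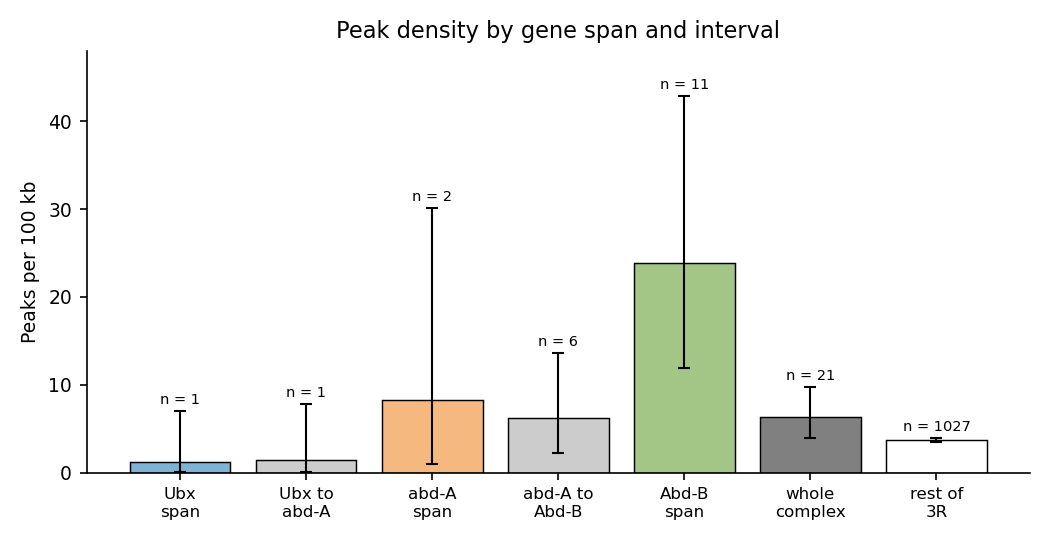
Peaks per 100 kb (vertical axis, from 0) in each gene span and interval in chromosomal order, in the whole complex and in the rest of 3R, with exact Poisson 95% intervals as error bars and the number of peaks above each. Abd-B stands at 23.9 peaks per 100 kb and the rest of 3R at 3.73.

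Abd-B is the gene whose product was immunoprecipitated. Its span held the highest peak of the complex (12758120 to 12760885). It scored 210.10, the third highest of 1048 peaks on 3R and rank 10 of the whole list, and was 2766 bp wide, rank 5 of the list. It began 6120 bp above the lower end of the span and alone made up 36.6% of the length that peaks covered in Abd-B. The second highest score of the complex was 37.67, and the width of the highest peak was 3.04 times that of the second widest, 909 bp. Of the 13 peaks in the list with a score above 200, it was the widest; the next had 1650 bp and their median was 1329 bp. The 5 peaks of the list that were at least as wide, itself included, had scores from 61.79 to 210.10 with a median of 78.76.

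The other 10 peaks of Abd-B were much weaker, with scores from 8.71 to 31.03. Here and below, weak and strong refer only to the score, which the file does not define. On either side of the highest peak stood a weak one, with a score of 8.71 at 12756842 to 12757159 and 9.09 at 12761887 to 12762421. These 3 peaks lay within 5580 bp, of which they covered 64.9%. A further 7 peaks followed, after a gap of 5069 bp, between 12767491 and 12780760. They covered 27.5% of these 13270 bp and had a median score of 12.12. The strongest of them, from 12769930 to 12770680, scored 31.03 and was 751 bp wide, and the widest, from 12774296 to 12775204, measured 909 bp and scored 23.88.

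The other peaks of the group were weaker. Below the strongest stood those starting at 12767491 (201 bp, score 9.35) and at 12768329 (341 bp, score 12.12). Between the strongest and the widest lay one starting at 12771479, with 738 bp and a score of 14.14. The one starting at 12775312 (505 bp, score 11.61) lay 107 bp above the widest, and the one starting at 12780556 (205 bp, score 10.83) closed the group. The last peak of the complex, at 12789240 to 12789536, was 297 bp wide with a score of 14.58 and ended 8464 bp short of the 5′ end of the Abd-B span. It was the nearest peak to that end.

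**Figure D3:**
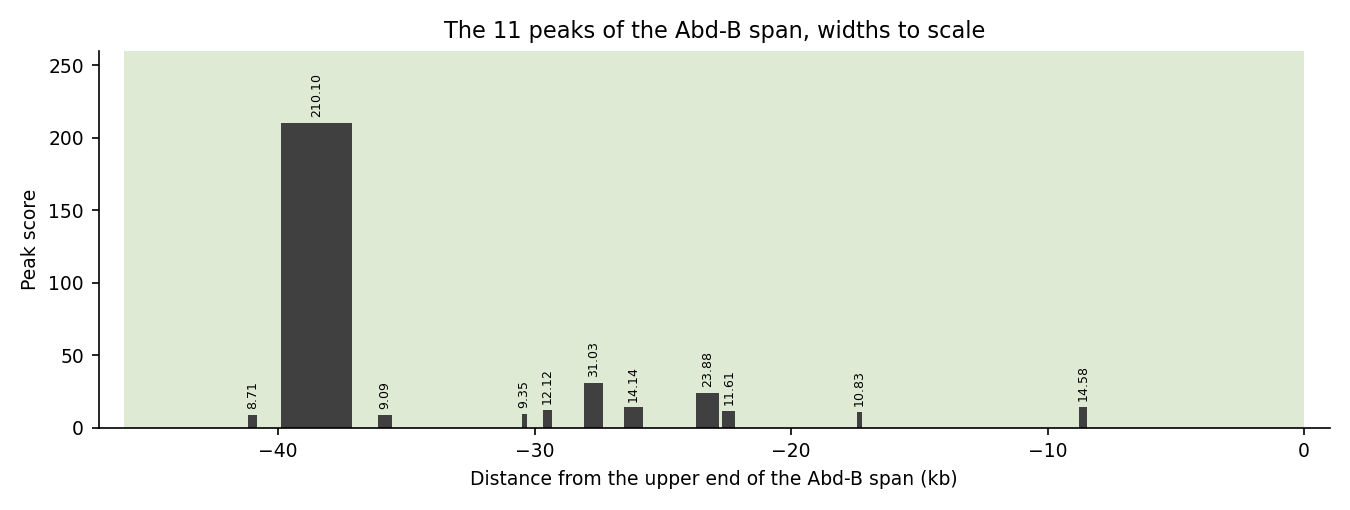
The 11 peaks of the Abd-B span, drawn as bars with their widths to scale, at their distance from the upper (5′) end of the span (horizontal axis, kb; vertical axis, score from 0). The peak with a score of 210.10 stands near the lower end and the other bars reach no more than 31.03.

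The transgene carries Abd-B DNA of its own, and the labels do not say how much genomic DNA surrounds its coding region. Reads from the transgene and from the resident gene are not separated in the list. Within the Abd-B span, binding at the resident gene and additional copies of its DNA cannot be told apart. Whether those copies cover the whole span or reach into the neighbouring interval is not known either.

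Between abd-A and Abd-B, the stretch that holds iab regulatory DNA, 6 narrow peaks were spaced widely. The strongest peak of the complex outside Abd-B lay here, at 12695049 to 12695414, with a score of 37.67 in a width of only 366 bp. The next peak upwards, at 12708176 to 12708515, had a score of 22.10 and a width of 340 bp. A pair of peaks 104 bp apart followed, at 12724785 to 12725179 with a score of 16.25 and a width of 395 bp, the widest of the interval, and at 12725284 to 12725541 with a score of 8.91. After a gap of 23755 bp, a peak from 12749297 to 12749630 scored 13.29 and ended 2370 bp below the Abd-B span. The peak nearest to abd-A, at 12672988 to 12673285, had a score of 9.18. On the release 6 gene table, the genes named between abd-A and Abd-B are MSAmiP, lncRNA:iab8, lncRNA:iab4, mir-iab-4, mir-iab-8 and lncRNA:CR43617. Their positions were not combined with the peaks, because the builds differ.

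The abd-A span held 2 weak peaks. The one at 12655540 to 12655953, with a score of 10.29 and a width of 414 bp, ended 47 bp from the 5′ end of the span, a distance smaller than the rounding of the span. The other, at 12637564 to 12637780, had a score of 10.01, was 217 bp wide and lay 5564 bp above the 3′ end. Both scores were among the lower ones of the list, at percentiles 19.5 and 17.1. With the spans narrowed by 1 kb at each end, the first fell in the neighbouring interval and abd-A held 1 peak.

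The Ubx span, the longest of the 3, held 1 peak in 79 kb, at 12528597 to 12528967, with a score of 15.57 and a width of 371 bp. It lay inside the span, 32033 bp from the 5′ end. The nearest peak to that end lay outside the gene, 28654 bp above it, from 12589654 to 12590072, with a score of 18.00 and a width of 419 bp. This was the only peak between Ubx and abd-A, a stretch in which the release 6 gene table lists lncRNA:bxd, CG31275, lncRNA:CR44945, Glut3, lncRNA:CR45750 and lncRNA:TS16. The gaps on either side of it, 60686 bp below and 47491 bp above, were the widest in the complex. On 3R, 121 of 1047 gaps were at least as wide as the first (11.6%) and 153 as wide as the second (14.6%). A single peak in 79 kb is also not rare: of 1501 windows of that length on the major arms, 629 (41.9%) held 1 peak or 0, and the median was 2.

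Spacing showed the same division, which largely follows from the densities and is not a separate result. The 10 gaps within Abd-B had a median of 1130.5 bp, and none exceeded 8479 bp. The 9 gaps between the peaks outside Abd-B had a median of 17759 bp, and 8 of them were over 10 kb. Over the complex the median gap was 6140 bp (order-statistic 95% interval 1001 to 17034 bp). On the rest of 3R it was 10027 bp over 1025 gaps (8237 to 11975 bp), which lies within the interval of the complex. With peaks less than 1 kb apart merged, the medians were 12761 bp in the complex and 14890 bp on the rest of 3R, and among peaks that reached the median score of the list they were 16269 bp in the complex and 27924 bp on the rest of 3R. A neighbour less than 1 kb away was found for 10 of the 21 peaks, of which 8 lay in Abd-B, against 30.9% over the whole list. Outside the complex, the nearest peak below ended at 12473164, 6836 bp from the lower edge and 55432 bp from the peak in Ubx, since the part of Ubx next to that edge held none. The nearest peak above began at 12879851, 69851 bp from the upper edge and 90314 bp from the last peak in Abd-B.

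The complex held more peaks per length than the rest of its arm, whereas the complex without Abd-B did not. The whole complex had 6.36 peaks per 100 kb (exact Poisson 95% interval 3.94 to 9.73) and the rest of 3R had 3.73 (3.5 to 3.96), a ratio of 1.71 with intervals that just overlap. The ratio was 6.42 for Abd-B and 0.945 for the complex outside Abd-B. Peaks covered 3.33% of the complex and 1.97% of the rest of 3R. Without its highest peak, the share covered in the complex was 2.49%, and in the complex outside Abd-B it was 1.2%. Of 357 windows of 330 kb on the arms 2L, 2R, 3L, 3R and X, 32 (8.96%) held 21 peaks or more, and the median was 10. Of 2581 windows of 46 kb, the length of the Abd-B span, 15 (0.581%) held 11 peaks or more, 6 of them on 3R, and the median was 1. The 15 include a window on 3R with 11 peaks that overlaps the Abd-B span itself. All windows start at the arm's first base and are not aligned to genes, whereas the Abd-B span was chosen as a gene, so the shares are descriptions.

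**Figure D4:**
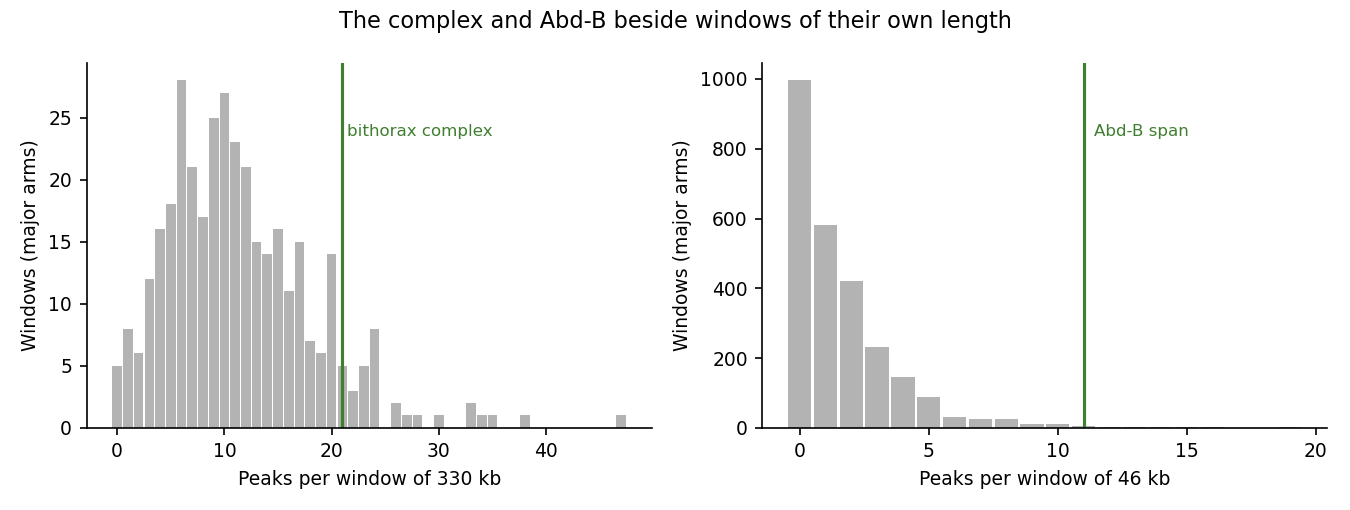
Number of windows on the major arms (vertical axis, from 0) by the peaks that they hold, for windows of 330 kb (left) and 46 kb (right). The lines mark the bithorax complex with 21 peaks, which 32 of 357 windows reach, and the Abd-B span with 11, which 15 of 2581 reach. The 15 include a window that overlaps the Abd-B span itself.

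Scores and widths of the peaks in the complex were close to those of the list, apart from the highest peak in Abd-B. Their median score was 13.29 (order-statistic 95% interval 10.01 to 18.0), against 15.46 for the rest of the list (15.18 to 15.88), and their median width was 366 bp (298 to 505), against 411 bp (402 to 421). Both pairs of intervals overlap. A score at or above the list median was reached by 8 of 21 peaks (38.1%, exact 95% interval 18.1 to 61.6%), where the list as a whole has 50.0% by construction, and the upper quartile of 28.21 was reached by 3 (14.3%, 3.05 to 36.3%), against 25.1%. These were the peaks at 12758120, 12695049 and 12769930. Scores above 100 were found for 1 of the 21 peaks, against 3.19% of the list, and a width of 1000 bp or more by the same 1 peak, against 8.91%. Each of these shares of the list lies within the exact interval of the complex.

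Peaks in Abd-B varied more in width than those elsewhere in the complex. The peak in Abd-B with a score of 31.03 was 751 bp wide, whereas that with 37.67 between abd-A and Abd-B had 366 bp. The median width was 505 bp in Abd-B (range 201 to 2766) and 353 bp outside it (range 217 to 419), although the median score was lower in Abd-B, at 12.12, than outside it, at 14.43. The order-statistic 95% intervals of the median widths, 205 to 909 bp in Abd-B and 258 to 414 bp outside it, overlap. Across the 21 peaks the Spearman correlation of score and width was 0.568, against 0.733 over the whole list, given as a description because both measures come from the same call.

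**Figure D5:**
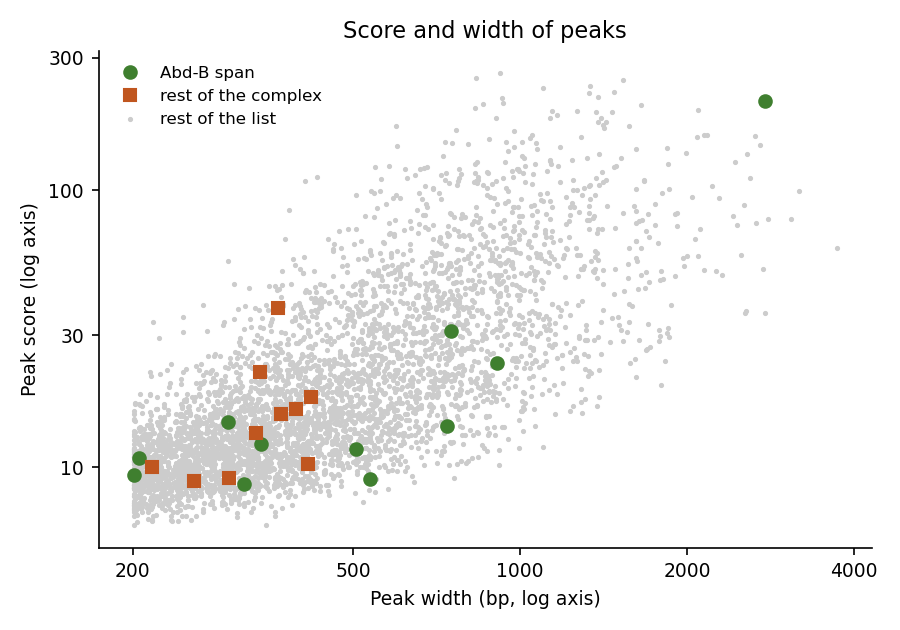
Score against width (both axes logarithmic, width in bp) for the 11 peaks of the Abd-B span, the other 10 peaks of the complex and the rest of the list. The widths outside Abd-B stay between 217 and 419 bp, whereas those in Abd-B reach from 201 to 2766 bp.

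Scores in Abd-B and in the remainder of the complex also differed in whether they equalled a Poisson tail, as defined next. The file does not define its score, which was compared with −log10 of the probability, under a Poisson distribution, of exceeding a whole number of fragments. At a background rate of 66.432, fitted over the whole list, 877 of 4389 scores (20.0%, exact 95% interval 18.8 to 21.2%) equal such a tail to 2 decimals. The tails take up 2.66% of all 2-decimal values between 8.71 and 37.67, a narrower range than the 6.18 to 264.05 of the list. The rate was chosen to give the most matches, so these shares do not test for coincidence. MACS, the peak caller named in the file, is known to use a local background wherever that exceeds the genome-wide one. A score on a tail of this rate may be one for which the genome-wide background was used, or may match by coincidence. Which background each peak was given was not tested. In the complex, 0 of 11 scores in Abd-B lay on a tail (exact 95% interval 0 to 28.5%), and 10 of 10 scores outside Abd-B did (69.2 to 100%). These intervals also treat peaks as independent, and neighbouring peaks that share a background make them too narrow. On the rest of 3R the share was 16.7% (172 of 1027 peaks). The interval of Abd-B includes this share and the 20.0% of the whole list. Only the interval of the 10 peaks outside Abd-B lies apart from both.

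The 10 peaks on a tail followed each other without a break from the Ubx peak at 12528597 to the peak that ends at 12749630, just below Abd-B. On the major arms, the peaks on a tail at the fitted rate formed 466 such runs, and this was the longest, ahead of 2 runs of 7 peaks. With the rate at 66.43 instead of 66.432, 9 peaks of the complex were on a tail, so the run of 10 did not hold. The lengths of runs at that rate were not computed. Of the 10 peaks on a tail at the fitted rate, 8 had no neighbour within 7 kb. Among the 1471 peaks on the major arms that stood as far from any other, 390 (26.5%, exact 95% interval 24.3 to 28.8%) were on a tail. The share among crowded peaks, to set beside Abd-B, was not computed. If the score is read in this way, the 10 peaks had pile-ups from 120 fragments, at 12725284, to 196 fragments, at 12695049, or 1.81 to 2.95 times the background rate. The pile-up was 142 fragments for the peak in Ubx, 125 for the peak at the 5′ end of abd-A and 160 for that at 12708176. No such reading is possible for the peaks in Abd-B, whose background is unknown. The part of the transgene's copies, of the input and of crowding in this difference was not tested. The run and the division at Abd-B were noticed after the scores had been seen.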

How the data were processed

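The authors deposited 1 peak list in GFF3 format with a start, an end and a score for each peak. Per the file headers, the coordinates are on FlyBase release 5 (BDGP5), and the source column names MACS. The submitters' processing notes list BWA, MACS2 and CASAVA (versions 1.7.0.2 and 1.7.0.3). The call's threshold, any read filter and how libraries were joined: not given in the sources used here. No read counts were used, so the depth is unknown.

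A peak belonged to the region that held its midpoint. Densities have exact Poisson, shares exact Clopper-Pearson and medians order-statistic (binomial) 95% intervals. Gaps run from the end of a peak to the start of the next. The length of 3R was taken from its first to its last peak. The background rate was the value between 2 and 300 at which most scores equalled −log10 of a Poisson tail to 2 decimals, in steps of 0.01 and then 0.001. No test was made, because no library is kept apart. The calculations were checked on simulated data and used Python 3.11.15, numpy 2.4.6, scipy 1.17.1, pandas 2.3.3 and matplotlib 3.10.9.

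The genes, their approximate spans and the measures were chosen with earlier results of these data known. All 21 peaks of the complex are named. Sequence and annotation of release 5 were not used, so peak sequences and motifs were not analysed here. Names of neighbouring genes are from a RefSeq table on release 6, in which all 3 genes matched by symbol, and its coordinates were not used.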

Additional observations from a re-analysis of the deposited data

How the results depend on the processing

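Of 58 values recomputed under an alternative, 49 moved by less than their counting interval or, for a count, by no more than 1.5 times. The 49 include the values that counting by overlap left unchanged. They also include those of the empty edges, where restricting or merging the list cannot add a peak. Restricting the list to scores of at least its median left 8 peaks in the complex, or 2.42 per 100 kb, covering 1.91% of it, with a median score of 22.99, and left 3 in Abd-B, 3 between abd-A and Abd-B and 0 in abd-A. Fewer peaks and a higher median follow from that choice by construction. The ratio to the rest of 3R was then 1.45, and 1.58 with peaks less than 1 kb apart merged. Merging left 16 peaks in the complex and 7 in Abd-B. Gene spans narrowed by 1 kb at each end left 1 peak in abd-A, since its other peak lies at the end of the span. Counting a peak in each region it overlaps by 1 bp changed no value. Scores within 0.01 of a Poisson tail numbered 11 of 21, 1 of them in Abd-B, against 25.7% of the list. With the rate at 66.43, an alternative chosen after seeing the data, 9 of 21 were on a tail and 0 of these in Abd-B. No paired analysis was possible because the libraries have no separate values in the list, and leaving out a replicate was not possible either. The depth of the libraries is unknown, and how it limits the list was not tested.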

Other observations

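At the fitted background rate, the longest run of neighbouring peaks with scores on a Poisson tail on the major arms was that of 10 peaks in the complex. The next longest were 2 of 7 peaks each, on 3L from 16444982 to 16487115 and on 3R from 2674178 to 2863499. Their scores were compared with no other measurement. The rate was fitted over a list that includes the 10 scores, and the run was noticed after the scores had been seen. At a rate of 66.43, 9 peaks of the complex were on a tail, so the run of 10 did not hold.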
